A study of Mus musculus with 24 samples.

Results

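The genes described here encode the subunits of the proteasome. They were chosen by name, as the array probes annotated to Psma, Psmb, Psmc, Psmd or Psme genes with a number, leaving out Psmb8 and Psmb9. The rule found 73 probes for 41 genes among the 45281 probes of the array. Of these, 54 probes rose above the noise of the array on at least 6 of the 24 arrays, and they measured 35 of the 41 genes.

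Liver RNA came from male C57BL/6J mice aged 16 weeks, in 4 groups of 6 samples, after 10 weeks on their diets. Control mice had a normal diet and plain water, and high-sugar mice had the normal diet with a drink containing 23% (w/v) sugar. High-fat mice had a high-fat diet and plain water, and high-fat high-sugar mice had the high-fat diet with the sugar drink. No group carried a genetic change. Whether every sample is its own animal is not stated in the labels, so p-values here reflect only the variation among the 24 samples, some of which may be technical. The design asks what the sugar drink does on each diet and what the high-fat diet does with each drink.

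The proteasome is the large protease complex that degrades proteins marked with ubiquitin, and in the liver it takes part in the turnover of metabolic enzymes and of misfolded proteins. Its barrel-shaped core has outer alpha rings, built from Psma proteins, and inner beta rings, built from Psmb proteins, of which Psmb5, Psmb6 and Psmb7 carry the proteolytic sites. A regulatory cap binds ubiquitin chains, removes them and feeds the substrate into the core through a ring of ATPases (Psmc proteins). This ring is part of the base of the cap. Non-ATPase subunits (most Psmd proteins) make up the rest of the base and the lid. Psme proteins form alternative activators that open the core without ATP.

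Each sample was measured on 1 Illumina bead array, whose deposited values are background-subtracted, quantile-normalised probe intensities. Differences below are on the scale of log2(intensity + 32), with the standard error of the model (n = 6 per group). "Rose", "fell" and "passed" refer to an adjusted p under 0.05 in limma over all 11115 genes tested. The noise limit of the arrays was an intensity of 6.50 to 6.52, and between 17976 and 18010 probes lay above it on each array, a range that the quantile normalisation forces. Of 6 hepatocyte markers, Apoa1, Ttr, Serpina1c and Cps1 had group mean intensities of 6899 or more, the albumin probe (Alb) was dim at 61.0 to 152, and Tat stayed under the noise limit in every group. With the sugar drink Ttr rose and Cps1 fell on both diets. In whole liver, fewer cells of a type and less RNA per cell cannot be told apart.

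All of the subunit classes were represented among the 35 genes tested. These were 4 of 7 alpha-ring genes, 7 of 7 beta-ring genes, 5 of 6 cap ATPase genes, 12 of 14 other cap genes, 4 of 4 activator genes and 3 genes of tissue-restricted core subunits (Psmb10, Psma8 and Psmb11). Probes for Psma1, Psma3, Psma6, Psmc6 and Psmd3 exceeded the noise limit on 0 of 24 arrays, and Psmd6 did so on 1 array with 1 of its probes. Their transcripts therefore went unmeasured, although an intact proteasome needs these subunits. Psma8, known from the testis, and Psmb11, known from the thymus, had group means between 3.02 and 8.41, at or near the noise limit. In 28 of the 35 genes all 4 group means were at least 100.

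**Figure D1:**
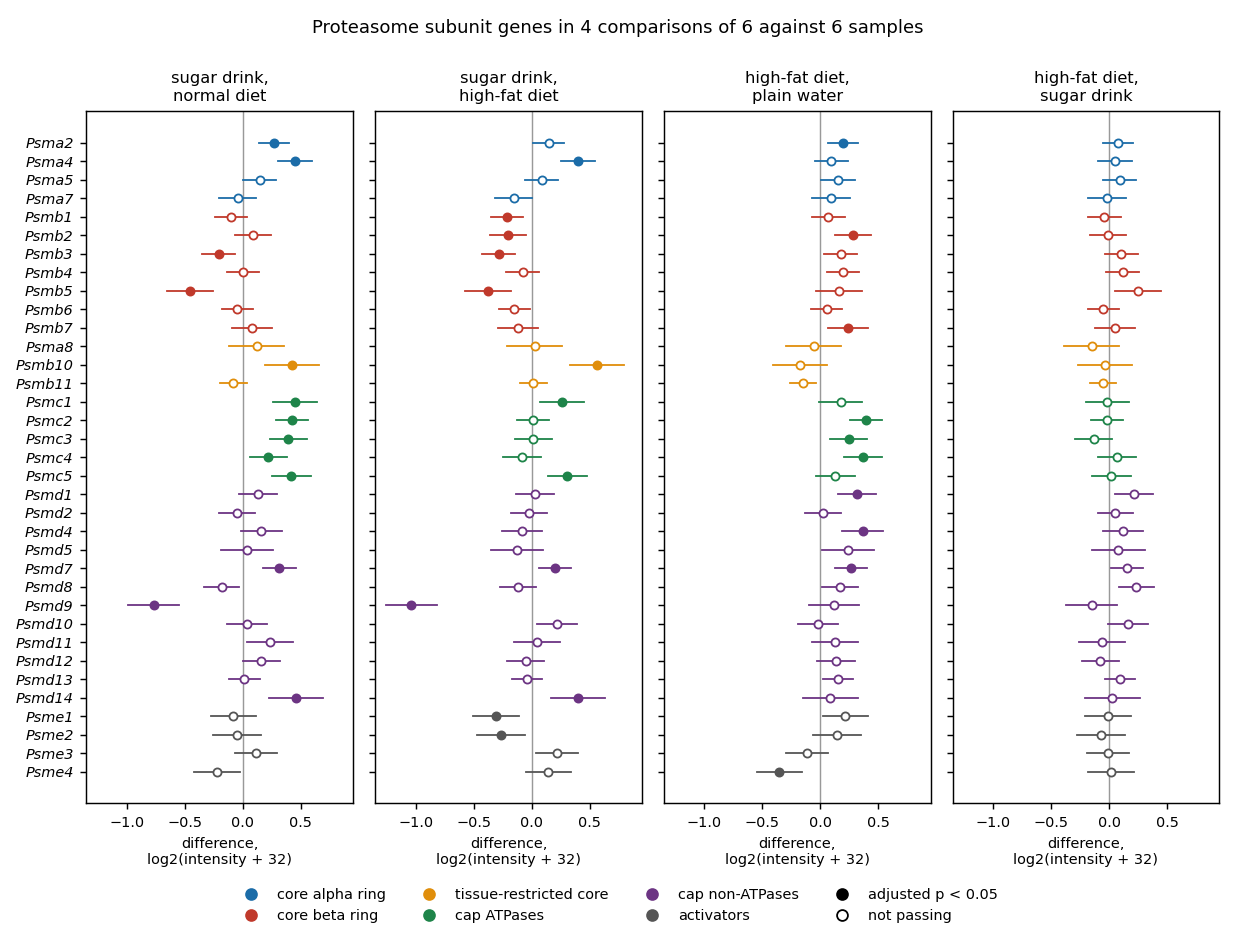
Difference in log2(intensity + 32) for each of the 35 proteasome subunit genes tested, in 4 comparisons of 6 against 6 samples; points are the estimates, bars the 95% intervals of the model, filled points have an adjusted p under 0.05, and colours mark the subunit class. The 5 cap ATPases lie right of 0 with filled points where sugar was added to the normal diet, the brightest probes of the 7 beta-ring genes lie left of 0 for the sugar drink on the high-fat diet (Psmb6 turns with the mean of its probes) and right of 0 for the high-fat diet with plain water, Psmd9 lies far to the left in both sugar comparisons, and no point is filled for the high-fat diet with the sugar drink. The comparisons share groups: the high-fat samples enter those of sugar on the high-fat diet and of fat with plain water, with opposite sign.

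The sugar drink on the normal diet raised the ATPases of the cap and lowered Psmd9 and Psmb5. Among the 35 genes, 10 rose (28.6%, against 14.8% of all genes tested) and 3 fell (8.57%, against 14.0% of all genes). The median difference was 0.08, against −0.01 over all genes. Those that rose were 5 ATPases (Psmc1, Psmc2, Psmc3, Psmc4 and Psmc5), the alpha-ring genes Psma2 and Psma4, the cap genes Psmd7 and Psmd14, and Psmb10. Psmb3, Psmb5 and Psmd9 fell. Among the 28 genes with all group means of at least 100, 32.1% rose, beside 17.7% of all genes at that level.

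The ATPases unfold the substrate and thread it into the core. The 5 measured were 0.22 to 0.45 higher than in control, with a median of 0.42. Psmc2 read 2512, 2803 and 2909 (lowest, median and highest) in control samples and 3352, 3733 and 4253 in high-sugar samples. The groups did not overlap, and the difference was 0.43 ± 0.07 (adjusted p = 3.72e-05). Psmc3 gave 1183, 1244 and 1278 in control samples, a narrow range, and 1492, 1632 and 1829 in high-sugar samples. Again every high-sugar sample lay above every control sample (0.39 ± 0.08, adjusted p = 0.000353). Psmc5 rose from a median of 641 (range 544 to 740) to 873 (764 to 935), without overlap (0.42 ± 0.08, adjusted p = 0.00038). A second Psmc5 probe gave 0.41 ± 0.09. Psmc1 rose from 301 (270.0 to 337) to 425 (359 to 526), also without overlap (0.45 ± 0.09, adjusted p = 0.000533). Psmc4 was the weakest of the 5: its groups overlapped (0.22 ± 0.08, adjusted p = 0.0372), and leaving out any of control samples 1, 3, 4, 5 or 6 or high-sugar samples 2, 3, 4 or 6 ended its call (0.19 at the lowest, adjusted p up to 0.0909).

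**Figure D2:**
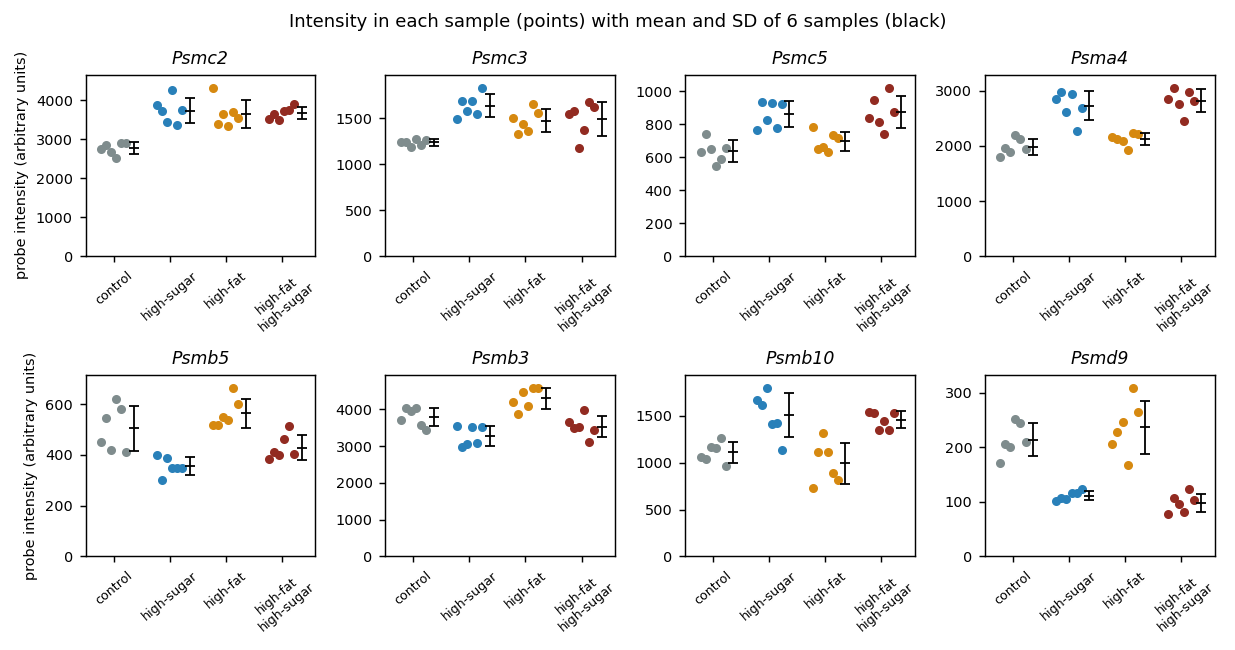
Probe intensity (linear, arbitrary units, axes from 0) of 8 proteasome subunit genes in each of the 24 samples, by group; points are samples and the black bars are the mean and SD of 6 samples. Psmc2 is lower in the control samples than in every other sample, Psma4 and Psmb10 are higher in both groups given the sugar drink, and Psmb5 and Psmd9 are lower in them.

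In the core, Psma4 rose while catalytic Psmb5 fell. Psma4, an alpha-ring subunit, read 1806, 1959 and 2194 in control samples and 2268, 2771 and 2981 in high-sugar samples, with no overlap (0.45 ± 0.07, adjusted p = 3.64e-05). Psma2, another alpha-ring subunit, also rose without overlap (0.27 ± 0.06, adjusted p = 0.00207). Psmb5, which carries the chymotrypsin-like site, read 411, 499 and 621 in control samples and 303, 349 and 399 in high-sugar samples. All high-sugar samples lay below all control samples, and the difference was −0.46 ± 0.10 (adjusted p = 0.000777). The other constitutive catalytic subunits did not pass: Psmb6 (caspase-like site) differed by −0.05 ± 0.07 and Psmb7 (trypsin-like site) by 0.08 ± 0.08. Psmb3, a non-catalytic beta-ring subunit, fell by 0.21 with overlapping groups (adjusted p = 0.0241), a call that ended without control sample 2, 3 or 4 or high-sugar sample 2, 3 or 5 (adjusted p up to 0.0634). Psmb10, the inducible subunit that replaces Psmb7 in immunoproteasomes, read 968, 1104 and 1267 in control and 1138, 1519 and 1792 in high-sugar samples. These groups overlapped, and the rise was 0.42 ± 0.11 (adjusted p = 0.00604). A second Psmb10 probe gave 0.29 ± 0.12 without passing.

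Psmd9 changed most among the proteasome genes. Its product is an assembly chaperone of the cap that binds the ATPases Psmc3 and Psmc6 and is absent from the finished complex. The probe read 171, 208 and 252 in control samples and 102, 111 and 123 in high-sugar samples, so the groups stood well apart. The difference was −0.77 ± 0.11 (adjusted p = 6.8e-06), or 1.70-fold lower on the scale of intensity + 32, which makes a fold smaller than that of the intensities themselves. A second Psmd9 probe had a mean intensity of 3.59, under the noise limit, and gave 0.17 ± 0.08 without passing, so the fall rests on 1 probe. With the mean of both probes on the log2 scale it was −0.30 (adjusted p = 0.0099).

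Among the other cap genes, Psmd7, which pairs with the deubiquitinase Psmd14 in the lid, rose by 0.31 ± 0.07 (adjusted p = 0.00116). Psmd14, which cuts the ubiquitin chain off the substrate, was dim: control samples read −1.22, 8.06 and 13.8 and high-sugar samples 13.9, 20.3 and 37.8. Although the groups did not overlap (0.46 ± 0.11, adjusted p = 0.00353), 4 of 6 control samples were above the noise limit, and the call ended when values under 16 were set to 16 in place of the offset (0.44, adjusted p = 0.155). None of the 4 activator genes passed. Psme1 and Psme2, which together form the interferon-inducible activator, differed by −0.08 ± 0.10 and −0.05 ± 0.10. These values are of the brightest probes, and a dimmer Psme1 probe fell on both diets, as given with the probes below.

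With the sugar drink on the high-fat diet, 13 of the 35 genes passed, in both directions. Of these 6 rose (17.1%, against 16.5% of all genes) and 7 fell (20%, against 14.0% of all genes), and the median was −0.02. The share that rose was close to the background. Psma4, Psmb10, Psmc1, Psmc5, Psmd7 and Psmd14 rose, and Psmb1, Psmb2, Psmb3, Psmb5, Psmd9, Psme1 and Psme2 fell. The sugar comparisons set different samples against each other, but the spread of each gene was estimated over all 24 samples. Their calls are therefore not independent. All 6 genes that rose on the high-fat diet were among the 10 that had risen on the normal diet (60% of those). All 3 that had fallen there fell again (42.9% of the 7). Over all genes, 1030 rose in both comparisons, 62.5% and 56% of the lists of 1649 and 1839, and 674 fell in both, 43.2% of each list.

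In the beta ring 4 of the 7 genes fell. All 7 estimates from the brightest probes were below 0 (−0.37 to −0.08, median −0.20), but that of Psmb6 turned to 0.11 with the mean of its probes, since its second probe rose (0.37 ± 0.08). Psmb5 read 517, 543 and 662 in high-fat samples and 385, 407 and 512 in high-fat high-sugar samples, which did not overlap (−0.37 ± 0.10, adjusted p = 0.00431). Psmb3 went from a median of 4327 (3881 to 4569) to 3507 (3103 to 3978), with slight overlap (−0.28 ± 0.07, adjusted p = 0.00269). Psmb1 (−0.21 ± 0.07, adjusted p = 0.0196) and Psmb2 (−0.20 ± 0.08, adjusted p = 0.0416), both non-catalytic, fell with overlapping groups. Their calls depended on single samples: that of Psmb1 ended without high-fat sample 6 or high-fat high-sugar sample 5 (adjusted p up to 0.0539), and that of Psmb2 without high-fat sample 3, 5 or 6 or high-fat high-sugar sample 1, 3 or 5 (adjusted p up to 0.12). The number of genes that fell dropped from 7 to 4 without high-fat sample 6 or high-fat high-sugar sample 3 or 5. Psmb6 (−0.15 ± 0.07) and Psmb7 (−0.11 ± 0.08) did not pass.

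Psmd9 fell again, from 168, 237 and 308 in high-fat samples to 78.1, 100.04 and 123 in high-fat high-sugar samples. The groups were fully separate, and the gene was 2.05-fold lower on the scale of intensity + 32 (−1.04 ± 0.11, adjusted p = 6.4e-08). Psmb10 rose from 735, 998 and 1313 to 1347, 1486 and 1535. Each high-fat high-sugar sample lay above each high-fat sample (0.56 ± 0.11, adjusted p = 0.000439), and a second Psmb10 probe rose too (0.41 ± 0.12). Psma4 rose from 1919, 2145 and 2232 to 2447, 2833 and 3051, again without overlap (0.40 ± 0.07, adjusted p = 9.9e-05).

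Of the ATPases, Psmc5 (0.31 ± 0.08, adjusted p = 0.00546) and Psmc1 (0.26 ± 0.09, adjusted p = 0.0313) rose on the high-fat diet. The call of Psmc1 ended without high-fat sample 2, 3 or 4 or high-fat high-sugar sample 2 or 5 (0.20 at the lowest, adjusted p up to 0.0963). Psmc2 (0.01 ± 0.07), Psmc3 (0.01 ± 0.08) and Psmc4 (−0.08 ± 0.08) did not pass. For Psmc2 the 95% interval of the difference ran from −0.13 to 0.15. Psmd14 was again dim and went from means of 9.68 to 23.7 (0.40 ± 0.11, adjusted p = 0.00939), a call that ended with values under 16 set to 16 (adjusted p = 0.121).

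Both subunits of the interferon-inducible activator fell with sugar on the high-fat diet. Psme1 read 2722, 3079 and 3675 in high-fat samples and 2014, 2527 and 3166 in high-fat high-sugar samples, with overlap (−0.31 ± 0.10, adjusted p = 0.0163). Without high-fat high-sugar sample 3 it was −0.25 and no longer passed (adjusted p = 0.0515). Psme2 read 552, 626 and 656 and then 460, 501 and 597, also overlapping (−0.27 ± 0.10, adjusted p = 0.0444). That call was the least stable, since leaving out 1 of 12 samples in turn ended it: high-fat samples 2 to 6, high-fat high-sugar samples 1 to 5, control sample 3 or high-sugar sample 5 (adjusted p up to 0.0929). Psmb10, which is found in the same immunoproteasomes, thus moved up while Psme1 and Psme2 moved down.

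With plain water, the high-fat diet raised 9 of the 35 genes (25.7%, against 9.06% of all genes) and lowered 1 (2.86%, against 8.80%). Without high-fat sample 5 or 6 the number that rose was 6, and without control sample 1, 2 or 4 the number that fell was 2. Passing or not, the estimate was above 0 for 29 of the 35, beside 5650 of the 11115 genes, with medians of 0.15 and 0.003. The genes that rose were Psma2, Psmb2, Psmb7, Psmc2, Psmc3, Psmc4, Psmd1, Psmd4 and Psmd7, and Psme4 fell. All 4 alpha-ring, all 7 beta-ring and all 5 ATPase genes had positive estimates, as did 11 of 12 other cap genes. Genes of these classes also varied together within groups, as described below, so their signs are not separate results. The control samples are the same as in the comparison of sugar on the normal diet. The high-fat samples are those of sugar on the high-fat diet, where they enter with opposite sign. Among the 28 genes with group means of at least 100, 32.1% rose, beside 13% of all genes at that level.

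Psmc2 rose most with the high-fat diet: its high-fat samples read 3337, 3586 and 4311, each above the highest control sample of 2909 (0.39 ± 0.07, adjusted p = 0.000208). Psmc4 rose from 2023, 2125 and 2407 to 2441, 2751 and 3372, without overlap (0.37 ± 0.08, adjusted p = 0.00186). Psmd4, a ubiquitin receptor of the cap, rose from 5550, 5866 and 6218 to 6624, 7441 and 9458, also without overlap (0.36 ± 0.09, adjusted p = 0.00372). Psmd1, a scaffold of the base, rose by 0.32 ± 0.08 (adjusted p = 0.00719) with overlapping groups, and a second bright Psmd1 probe gave 0.29 ± 0.07. Psmb2 (0.28 ± 0.08, adjusted p = 0.0108) and Psmd7 (0.26 ± 0.07, adjusted p = 0.00824) rose with overlap between the groups. Psmc3 rose without overlap (0.24 ± 0.08, adjusted p = 0.0265), a call that ended without control sample 3 or high-fat sample 5 or 6 (adjusted p up to 0.0694). Psma2 rose by 0.20 ± 0.06 (adjusted p = 0.0302), which no longer passed without control sample 1, 5 or 6 or high-fat sample 1, 5 or 6 (adjusted p up to 0.0844).

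Catalytic Psmb7 lay at the threshold (0.24 ± 0.08, adjusted p = 0.0494). Leaving out any 1 of 20 of the 24 samples, in any group, ended its call, and its 3 other probes gave −0.05 to 0.09 without passing. Psmb5 (0.16 ± 0.10) and Psmb6 (0.05 ± 0.07) did not pass, and neither did Psmb10 (−0.17 ± 0.11), Psme1 (0.22 ± 0.10) or Psme2 (0.14 ± 0.10). Psme4, an activator known for its role in chromatin and in testis, read 1147, 1433 and 1645 in control samples and 924, 1125 and 1234 in high-fat samples. The groups overlapped, and the fall was −0.35 ± 0.10 (adjusted p = 0.0108).

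With the sugar drink in both groups, the high-fat diet changed 0 of the 35 genes in limma, beside 4.34% of all genes that rose and 3.52% that fell. At an unadjusted p under 0.05, 4 of the 35 were higher and 0 lower, which is 11.4% beside 21.3% of all genes. The 4 were Psmd8, Psmb5, Psmd1 and Psmd7, chosen here after their values were seen. Psmd8, a lid subunit, came nearest at 0.23 ± 0.07 (adjusted p = 0.0504). The number that rose was 1 without control sample 4, high-fat sample 3, high-sugar sample 3, 4 or 6 or high-fat high-sugar sample 3 or 4. It was also 1 with a floor of 16, with probes above noise on all 24 arrays, with array weights or without the intensity trend. Psmb5 differed by 0.25 ± 0.10 (adjusted p = 0.128). Psmb6 (−0.05), Psmb7 (0.05), Psmb10 (−0.04), Psme1 (−0.01) and Psme2 (−0.07) lay within 1 standard error of 0.

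The interaction tests whether the diets differ in their response to sugar, and is negative where the sugar difference is lower with fat. In this test 0 of 35 genes were higher and 1 lower (1.14% and 1.29% of all genes), and at an unadjusted p under 0.05 there were 1 higher and 4 lower, which is 14.3% beside 18.0% of all genes. The number lower was 2 without control sample 4, high-sugar sample 1 or high-fat high-sugar sample 5. The estimate was negative for 27 of the 35, with a median of −0.11, beside 5276 of the 11115 genes and a median of 0.01. The gene that passed was Psmc2 (−0.41 ± 0.10, adjusted p = 0.0209). It read 2512 to 2909 in control samples and 3337 to 4311 in all samples given fat, sugar or both, and its sugar difference was 0.43 without fat and 0.01 with fat. Psmc2 passed in all 11 other settings that gave a value (adjusted p 0.0141 to 0.035). Psmc3 had a similar estimate but did not pass (−0.38 ± 0.11, adjusted p = 0.0577). The catalytic subunits Psmb5, Psmb6, Psmb7 and Psmb10 and the activator subunits Psme1 and Psme2 had estimates from −0.23 ± 0.14 (Psme1) to 0.14 ± 0.16 (Psmb10) and did not pass.

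Both treatments against control raised 13 of the 35 genes (37.1%, against 19% of all genes) and lowered 1 (2.86%, against 16.5%), with a median of 0.11. The number lowered was 3 without control sample 1 or 4 or high-fat high-sugar sample 5, and 2 without control sample 2, 3, 5 or 6 or high-fat high-sugar sample 4. The 5 ATPases rose by 0.26 to 0.44, as did Psma2, Psma4, Psma5, Psmb10, Psmd1, Psmd4, Psmd7 and Psmd14, and Psmd9 fell. This comparison shares its groups with those above. Psma4 showed the largest rise (0.50 ± 0.07, adjusted p = 6.52e-06), followed by dim Psmd14 (0.48 ± 0.11) and by Psmd7 (0.47 ± 0.07, adjusted p = 9.55e-06). Psmc5 rose by 0.44 ± 0.08, Psmc1 by 0.43 ± 0.09 and Psmc2 by 0.41 ± 0.07, each with every treated sample above every control sample. Psmb10 rose by 0.39 ± 0.11 (adjusted p = 0.009) and Psmd1 by 0.35 ± 0.08 (adjusted p = 0.0015), while Psmd9 was 1.89-fold lower on the scale of intensity + 32 (−0.92 ± 0.11, adjusted p = 4.34e-07). With the mean of its 3 probes, Psmd1 gave 0.11 and no longer passed (adjusted p = 0.244). No beta-ring gene passed, and Psmb5 was −0.21 ± 0.10 (adjusted p = 0.0917), Psmb6 −0.10 ± 0.07 and Psmb7 0.12 ± 0.08. Psme1 (−0.09 ± 0.10) and Psme2 (−0.13 ± 0.10) did not pass.

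**Figure D3:**
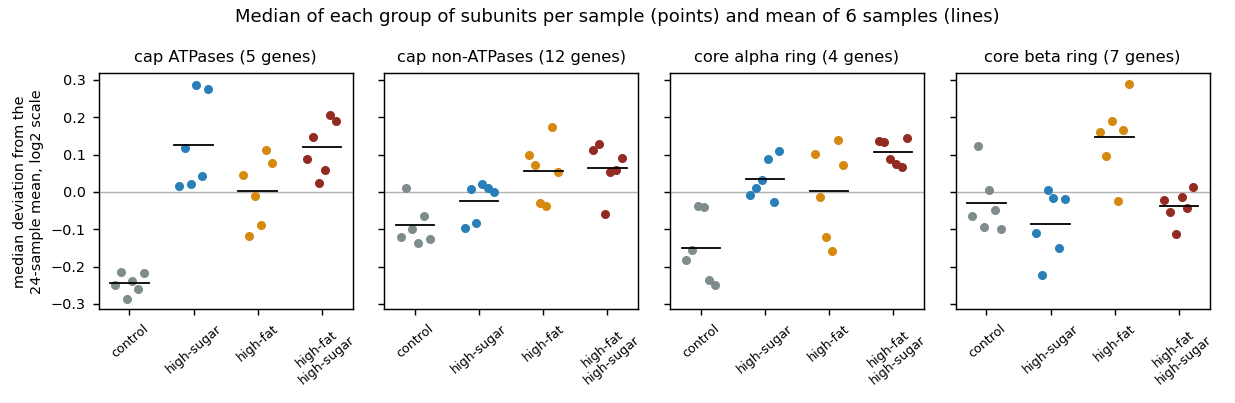
Median over the genes of a subunit class, per sample, of the deviation from each gene's mean over all 24 samples on the log2(intensity + 32) scale; points are samples and lines the means of 6 samples. For the ATPases the control samples lie between −0.29 and −0.22, below every sample of the other 3 groups, whereas the beta ring is highest on average in the high-fat samples at 0.15.

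Per-sample medians showed how the classes parted. The ATPase median lay between −0.29 and −0.22 in control samples, and the lowest of the other samples was a high-fat sample at −0.12. Thus no treated sample reached down to the control range. The summed intensity of 6 endothelial markers was also lowest in control samples (3999 to 5159, beside 5027 to 6429 in high-sugar, 5112 to 6211 in high-fat and 4688 to 5956 in high-fat high-sugar samples), with overlap. Clec4g made up most of that sum, and of the 6 markers 2 rose and 1 fell with sugar on the normal diet and 1 rose with fat and plain water. Only Clec4g and Lyve1 had their lowest group mean in control samples (3927 and 0.51). Pecam1, Cdh5 and Stab2 had higher means in control samples (101, 96.9 and 335) than in high-sugar samples (81.0, 86.5 and 273). In high-fat high-sugar samples these read 93.1, 84.2 and 251, and in high-fat samples 107, 95.3 and 396. Kdr lay between 11.5 and 12.8. The part of these markers in the ATPase values was not tested. For the alpha ring the control samples (−0.25 to −0.04) lay below the high-fat high-sugar samples (0.07 to 0.14). The beta-ring median followed another order, with group means of −0.03 in control, −0.09 in high-sugar, 0.15 in high-fat and −0.04 in high-fat high-sugar samples. Its high-fat samples (−0.02 to 0.29) overlapped those of the control group (−0.10 to 0.12). These medians describe the same values that were tested gene by gene and carry no test of their own.

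Within groups, the classes differed in how far their genes varied together. After subtracting group means, the median correlation over all pairs of genes across the 24 samples was 0.13 for the 35 genes, beside 0.00056 for pairs of all genes. By class it was 0.42 for the ATPases, 0.42 for the alpha ring, 0.27 for the beta ring and 0.19 for the other cap genes. It was 0.03 for the inducible or tissue-restricted core genes and −0.19 for the activators. The pair most alike was Psmd4 and Psmc4, at 0.71. Psmc4 had the highest median correlation with the other bright subunit genes (0.35) and Psmb10 the lowest (−0.24). These correlations come from the same arrays, which share their normalisation, and are given as a description.

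Probes of the same gene did not always give the same answer. Of the 35 genes, 14 had more than 1 probe above noise, with 19 further probes. Over the 54 probes, 16 rose and 4 fell with sugar on the normal diet (14.2% and 13.8% of all probes), 13 rose and 11 fell with sugar on the high-fat diet (14.9% and 14.7%), and 12 rose and 1 fell with fat and plain water (7.87% and 7.74%). Where both the brighter probe and a further probe passed, the direction was opposite for 0 of 3 probes with sugar on the normal diet, 1 of 6 with sugar on the high-fat diet and 0 of 4 with the high-fat diet and plain water. Over all genes these shares were 16.6%, 16.6% and 0.436%. Passing or not, 5, 9 and 6 of the 19 further probes had the opposite sign in these comparisons (26.3%, 47.4% and 31.6%). Over all genes this held for 38.6%, 37.8% and 32.4% of further probes. What separates the probes of a gene was not tested, and the RNA stretch that each covers was not used here.

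**Figure D4:**
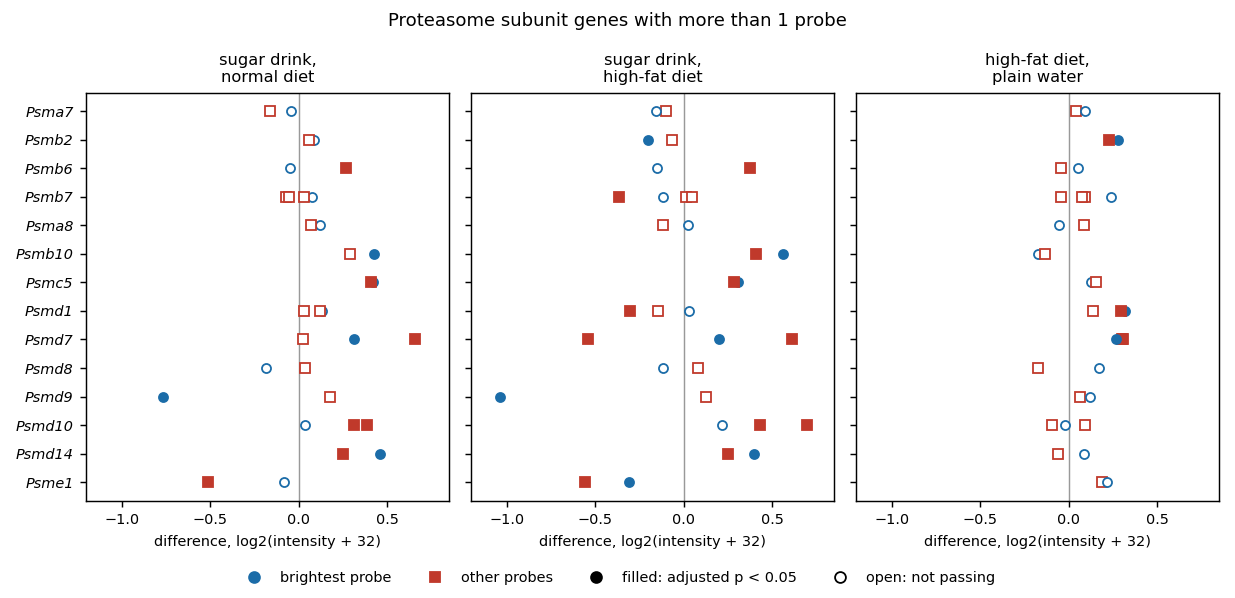
Difference in log2(intensity + 32) for every probe above noise of the 14 proteasome subunit genes with more than 1, in 3 comparisons; circles are the brighter probe used for the gene, squares the further probes, and filled symbols have an adjusted p under 0.05 over all 20216 probes. For Psmd7 with sugar on the high-fat diet a further probe lies on each side of the circle, at 0.61 and −0.54, and for Psmb6 the further probe lies right of 0 in both sugar comparisons.

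Psmd7 showed the clearest split. With sugar on the high-fat diet its brightest probe gave 0.20 ± 0.07 (adjusted p = 0.0274), a dimmer one 0.61 ± 0.10 and the dimmest, at a mean intensity of 78.2, −0.54 ± 0.10. The dimmest gave 0.02 on the normal diet, whereas all 3 rose with the high-fat diet and plain water (0.26 to 0.31). With the mean of its probes, Psmd7 no longer passed for sugar on the high-fat diet (0.09, adjusted p = 0.353), and it also lost that call without high-fat sample 3, 4 or 5 or high-fat high-sugar sample 1 or 4 (adjusted p up to 0.0644). A second Psmb6 probe rose in both sugar comparisons (0.27 ± 0.08 and 0.37 ± 0.08), where the brighter one gave −0.05 and −0.15. The second Psme1 probe fell in both (−0.51 ± 0.10 and −0.56 ± 0.10), a larger fall than that of the brighter probe. For Psmd10, a cap chaperone whose brightest probe did not pass (0.03 and 0.22), both dimmer probes rose (0.31 and 0.39 on the normal diet, 0.43 and 0.69 on the high-fat diet). In contrast, the probes of Psmc5 gave 0.42 and 0.41 on the normal diet and 0.31 and 0.28 on the high-fat diet.

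Genes that build, regulate or feed the proteasome were read from lists set for this work. Over all genes, as above, 14.8% rose and 14.0% fell with sugar on the normal diet, 16.5% and 14.0% with sugar on the high-fat diet, and 9.06% and 8.80% with fat and plain water, and the counts of these short lists stand beside those shares. Of 10 assembly factors and bound proteins tested, 2 rose and 2 fell with sugar on the normal diet, 3 rose and 2 fell with sugar on the high-fat diet, and 1 rose and 1 fell with the high-fat diet and plain water. Pomp, the chaperone that matures the core, rose by 0.24 ± 0.06 with sugar on the normal diet (adjusted p = 0.00593), and Sem1, a small lid subunit, by 0.71 ± 0.15 with sugar on the high-fat diet (adjusted p = 0.000624). On the normal diet Sem1 gave 0.41 ± 0.15 (adjusted p = 0.0418), a call that ended without control sample 1, 2, 3, 5 or 6 or high-sugar sample 1, 3, 5 or 6 (adjusted p up to 0.106). Psmg1, which assembles the alpha ring, fell by 0.23 with sugar on the high-fat diet (adjusted p = 0.0221), but not without high-fat sample 5 (adjusted p = 0.052). Zfand2a, an arsenite-inducible protein bound to the cap, rose with the high-fat diet on either drink (0.33 ± 0.10 and 0.45 ± 0.10).

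Nfe2l1 encodes NRF1, the factor that raises proteasome genes when the proteasome is inhibited. It did not pass in any of the 6 tests, with estimates from −0.04 ± 0.12 (sugar on the normal diet) to 0.16 ± 0.12 (fat with sugar). Of the 4 genes tested in its list, Nfe2l2, which encodes the related NRF2, rose with sugar on both diets (0.43 ± 0.11 and 0.50 ± 0.11), and Mafg, a partner of both factors, fell with fat on both drinks (−0.41 ± 0.11 and −0.53 ± 0.11).

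Of 13 ubiquitin genes and conjugating enzymes, 3 rose and 3 fell with sugar on the normal diet, 2 rose and 3 fell with sugar on the high-fat diet, and 3 rose and 1 fell with fat and plain water. As shares these were 23.1% and 23.1%, 15.4% and 23.1%, and 23.1% and 7.69%. Ube2a rose with sugar on both diets (0.53 ± 0.09 and 0.50 ± 0.09) and Ube2h fell (−0.55 ± 0.09 and −0.36 ± 0.09). Among 11 genes of the VCP segregase and ubiquitin shuttles, 3 rose and 1 fell with sugar on the normal diet, 3 rose and 3 fell with sugar on the high-fat diet, and 2 rose with fat and plain water. The VCP cofactors Ubxn1 (0.81 ± 0.11 and 0.80 ± 0.11) and Plaa (0.66 ± 0.14 and 0.86 ± 0.14) rose with sugar on both diets. Of 10 genes of ER-associated degradation, which passes misfolded ER proteins to the proteasome, 5 fell with fat and plain water, among them Herpud1 (−0.54 ± 0.14), Derl2 (−0.39 ± 0.08) and Erlec1 (−0.21 ± 0.06). With sugar on the high-fat diet 5 of these 10 rose and 1 fell, with Sel1l at 0.52 ± 0.11, Syvn1 at 0.48 ± 0.14 and Derl2 at 0.27 ± 0.08. This comparison and that of fat and plain water share the high-fat samples, which enter them with opposite sign. Their calls are therefore not separate results. With sugar on the normal diet 2 of the 10 rose.

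Psmb10 is itself induced by interferon, so a list of interferon-induced genes was read beside it. Of 12 tested, 8 rose with sugar on the normal diet (66.7%, against 14.8% of all genes), 5 with sugar on the high-fat diet (41.7%, against 16.5%) and 5 with fat and plain water (41.7%, against 9.06%), and 0 fell in these 3 comparisons. Gbp2 rose by 1.09 ± 0.19 and 1.21 ± 0.19 with sugar on the normal and the high-fat diet. With fat and plain water Usp18 rose by 1.06 ± 0.19 and Irgm1 by 0.61 ± 0.11, where Psmb10 did not pass. Of macrophage markers, 2 of 6 tested rose with sugar on the normal diet, 1 with sugar on the high-fat diet and 3 with fat and plain water. Their summed intensity, over 7 markers, ran from 1841 to 2144 in control samples, 1761 to 2971 in high-sugar, 1898 to 3184 in high-fat and 2151 to 2788 in high-fat high-sugar samples. Of the 7, 3 had a mean under the noise limit in control samples, 2 in high-fat samples and 1 in each group given sugar, and Cd5l was under it in every group. For 6 lymphocyte markers the sums lay between 47.8 and 116 over all samples, with Cd8a and Ms4a1 under the limit in every group, and 0 of the 4 tested passed in any comparison. The part of these markers in the change of Psmb10 was not tested.

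Promoters are shown for some of the ATPase genes that rose together (Psmc1 and Psmc5) and for the subunit genes that fell most (Psmd9 and Psmb5). The sequences are the 250 bases before the annotated start in RefSeq, build GRCm38.p6, written 5′ to 3′ on the strand of the gene. Capitals mark matches, on either strand, to TGACNNNGC, the core of the element bound by NRF1 and NRF2 with small MAF proteins, to CCAAT, the box bound by NF-Y, or to GAANNTTC, the core of the heat shock element.
Psmc1, chr12:100109952-100110201, plus strand: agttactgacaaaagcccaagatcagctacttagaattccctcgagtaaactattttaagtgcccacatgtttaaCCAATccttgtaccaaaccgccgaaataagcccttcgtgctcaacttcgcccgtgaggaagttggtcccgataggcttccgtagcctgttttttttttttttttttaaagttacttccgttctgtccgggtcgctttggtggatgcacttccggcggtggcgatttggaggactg
Psmc5, chr11:106255935-106256184, plus strand: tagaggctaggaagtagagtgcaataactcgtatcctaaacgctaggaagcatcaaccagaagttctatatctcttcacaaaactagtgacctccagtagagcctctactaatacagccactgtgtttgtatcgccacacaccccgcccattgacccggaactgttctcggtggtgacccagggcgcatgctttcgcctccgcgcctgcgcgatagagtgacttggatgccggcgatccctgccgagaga
Psmd9, chr5:123227940-123228189, plus strand: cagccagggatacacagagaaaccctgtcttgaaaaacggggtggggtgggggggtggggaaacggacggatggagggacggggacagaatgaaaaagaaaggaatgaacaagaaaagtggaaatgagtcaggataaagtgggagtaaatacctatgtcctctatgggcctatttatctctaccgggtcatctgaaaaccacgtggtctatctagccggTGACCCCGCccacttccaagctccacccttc
Psmb5, chr14:54617996-54618245, minus strand: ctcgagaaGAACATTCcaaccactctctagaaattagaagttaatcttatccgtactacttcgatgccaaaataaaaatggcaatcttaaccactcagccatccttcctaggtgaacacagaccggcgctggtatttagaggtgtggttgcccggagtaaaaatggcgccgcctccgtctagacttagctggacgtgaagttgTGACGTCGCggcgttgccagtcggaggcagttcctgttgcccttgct

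No motif was found in all of these windows, though those of Psmd9 and Psmb5 each held TGACNNNGC on the strand of the gene. The Psmd9 promoter held TGACCCCGC 31 bases before the start and that of Psmb5 held TGACGTCGC 47 bases before it, with a GAACATTC further up at 242. The Psmc1 window held 1 CCAAT box at 175 and the Psmc5 window none of the motifs searched. Psmc2, not shown, held a CCAAT box at 28 in 1 window and no motif in its other, and Psmc4, not shown, held none. Of the 41 genes, 34 had at least 1 promoter in the table, 37 in all. TGACNNNGC was found in 5 of these 37 (13.5%, beside 10.2% of 32851 promoters of the same length), CCAAT in 13 (35.1%, beside 33.8%) and GAANNTTC in 1 (2.70%, beside 6.69%). Beside Psmb5 and Psmd9, the genes with TGACNNNGC were Psmb6, Psmd12 and Psmc6. The brightest probes of Psmb6 and Psmd12 passed in neither sugar comparison, and Psmc6 was not measured. The median GC content was 57.6% in the subunit promoters and 52.4% in all promoters. The 41 genes lie on 16 chromosomes, with at most 8 on 1 of them. A match describes the letters in the window, not binding.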

How the data were processed

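Liver RNA of 24 samples was labelled as biotin cRNA and hybridised to Illumina bead arrays. The authors made the values with GenomeStudio 2011.1, per the submitters' processing notes. The deposited unit is intensity on a linear scale. It was background-subtracted (37.7% of values negative, lowest −13.0) and quantile-normalised (largest difference between sorted columns 0.231), both read from the values. A non-normalised table, with 48 columns of per-sample values whose names match no sample, was not used here.

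An offset of 32 was added before log2. Each array's noise limit was 1.645 times the root-mean-square size of the values below 0. Probes above it on at least 6 of 24 arrays were kept (20216). Gene symbols came from the platform annotation, with 34807 of the 34885 single-symbol probes matched to current symbols through their gene identifier, and 18 probes with several symbols were unnamed. A gene's value was its kept probe with the highest mean log2 value (11115 genes). limma 3.58.1 in R 4.3.3 fitted 1 mean per group, letting the prior variance follow intensity (residual degrees of freedom 20, prior 6.96), two-sided, with Benjamini-Hochberg adjustment within each comparison at 0.05. The script was tested on simulated data. Sequences and positions were taken from RefSeq, GRCm38.p6. The genome build of the array is not given in the sources used here.

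The genes described, the lists and the tests were chosen with earlier results of these data known. In each comparison the text names the 10 passing subunit genes with the largest difference, and always Psmb5, Psmb6, Psmb7, Psmb10, Psme1, Psme2 and Nfe2l1. Up to 3 passing genes of each list were also picked by adjusted p, but the text prints only some of them. Cxcl10, Ifit3 and Ube2s are among those left out, and no list gene picked in this way is given for both treatments. Other passing subunit genes were named after their values were seen. Alternatives were another offset or a floor, other filters, further scaling, array weights, no trend, the mean of a gene's probes, only the groups compared, a replicate block, and leaving out each sample. The number of arrays limits the precision.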

Additional observations from a re-analysis of the deposited data

Results flagged for a closer look

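In 54 genes picked for naming, printed above or not, the 6 samples of each group were searched for 1 that stood far from the rest. The measure was a gap to the nearest that is large against the group's range, by Dixon's criterion, and 10 of 216 sets held such a sample. Chance gives about 1 in 20 sets. Of the proteasome subunit genes, Psma2 was highest at 6430 in high-sugar sample 6 (others 5824 to 5974), Psmb1 lowest at 3272 in control sample 1 (others 3675 to 3918) and Psmb2 lowest at 4160 in high-fat high-sugar sample 5 (others 4837 to 5211). Among list genes, Psmg1 was highest at 521 in high-fat high-sugar sample 3, Sel1l highest at 327 in high-fat sample 1 and Syvn1 highest at 2025 in control sample 6. Herpud1 (6122, high-fat high-sugar sample 1), Irf9 (286, high-fat high-sugar sample 6), Nploc4 (155, high-sugar sample 2) and Zfand2a (164, control sample 2) each had 1 low sample.

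The interaction test was passed by 3 named genes, beside 1.14% of all genes higher and 1.29% lower. Passing it was itself 1 of the grounds for naming a gene, so that number is no separate result. Psmc2 was −0.41, from 0.43 on the normal diet to 0.01 on the high-fat diet. Nsfl1c, a VCP cofactor, was −0.41 (0.10 and −0.32), and Ube3c, a ubiquitin ligase bound to the cap, was 0.39 (−0.23 and 0.17). The call of Psmc2 held with any 1 sample left out. Those of Nsfl1c (adjusted p = 0.0412) and Ube3c (adjusted p = 0.0375) held in 9 and 10 of the 24 such repeats.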

How the results depend on the processing

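Leaving out 1 sample at a time moved the number of subunit genes that rose or fell from 10 and 3 to 9 to 11 and 2 to 4 for sugar on the normal diet, and from 6 and 7 to 4 to 7 for either direction on the high-fat diet. For fat with plain water it gave 6 to 10 that rose (6 without high-fat sample 5 or 6) and 1 to 2 that fell (2 without control sample 1, 2 or 4). For fat with sugar it gave 0 to 1 that rose (1 without control sample 4, high-fat sample 3, high-sugar sample 3, 4 or 6 or high-fat high-sugar sample 3 or 4). The interaction gave 1 to 2 that fell (2 without control sample 4, high-sugar sample 1 or high-fat high-sugar sample 5), and both treatments 13 to 14 that rose and 1 to 3 that fell (3 without control sample 1 or 4 or high-fat high-sugar sample 5). Of the other settings, a floor of 16, probes above noise on all 24 arrays, array weights and no intensity trend each gave 1 rise for fat with sugar. These 4, and median centring, gave 2 falls in the interaction. Cyclic loess and array weights gave 2 falls for fat with plain water, and those, median centring and the mean of a gene's probes gave 2 falls for both treatments. Over all genes, array weights raised the interaction counts from 127 and 143 to 214 and 236.

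Replicate numbers showed no sign of pairing the samples, and the labels do not say whether they do. Deviations of same-numbered samples correlated between −0.27 and 0.28, with a median of 0.009, beside 0.006 for differently numbered samples. The best correlate had the same number for 3 of 24 samples. With a replicate block 10 rose and 3 fell for sugar on the normal diet, 6 and 6 on the high-fat diet, 8 and 1 for fat with plain water, 0 and 0 for fat with sugar, 0 and 1 in the interaction and 13 and 1 for both treatments.

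Estimates near 0 changed sign. With array weights Nfe2l1 was −0.0028 for sugar on the high-fat diet and Psme1 0.0086 for fat with sugar. With the mean of its probes, Psmb6 was 0.11 for sugar on either diet, 0.0056 for fat with sugar, 0.00018 in the interaction and 0.12 for both treatments. Psmb7 was −0.0042, −0.013 and −0.017 for sugar on the normal diet, fat with sugar and both treatments, and Psme1 0.065 for fat with sugar. With 1 sample left out, Psme2 ran from −0.11 to 0.036 and Nfe2l1 from −0.099 to 0.030 for sugar on the normal diet, Nfe2l1 from −0.067 to 0.071 for sugar on the high-fat diet and −0.029 to 0.12 in the interaction, and for fat with sugar Psmb10 from −0.11 to 0.015 and Psme1 from −0.078 to 0.051. The cause was not tested. Values at or below the noise limit (Psma8, Psmb11, Psmd14 in control samples) and the dim values of Psmd2 limit what these arrays can order.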
